A study of Homo sapiens with 6 samples.

Results

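The genes described here carry the interferon signal from the cell surface to the nucleus. They are the receptor chains IFNAR1, IFNAR2 and IFNGR1, the kinases JAK1 and TYK2, and the transcription factors STAT2, IRF9, IRF7 and IRF1. The 9 genes were taken by symbol from the authors' tables of mRNA transcripts, where they account for 49 of 92866 transcripts and 9 of 19871 gene symbols.

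The cells were HCT116, an established line from a colorectal cancer, and strand-specific lncRNA libraries were sequenced from 3 groups of 2 libraries. The first group was a negative control (NC), another received a GAS5 plasmid (GAS5) and the last an siRNA against YAP (siYAP). The experiment asked which genes respond to the lncRNA GAS5 and to loss of YAP, the transcriptional co-activator of the Hippo pathway. The tables give 1 mean per group, so no spread between libraries could be computed, no test was run, and no difference below has a replicate check.

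All groups are the same cell line, with no further genotype or agent named. All group names stand under an siRNA label, although GAS5 is said to be a plasmid. What the NC cells received is not stated, nor is the time from transfection to RNA extraction or which YAP siRNA was used. The GAS5 RNA and its plasmid delivery therefore cannot be told apart. Libraries held on average 25521577 counts in GAS5, 26298036 in siYAP and 27206123 in NC. YAP1, the target of the siRNA, stood at 3480, 2679 and 1444 mean counts in NC, GAS5 and siYAP (log2 fold change in siYAP -1.18, 95% counting interval -1.25 to -1.12). GAS5 itself was not analysed here, so its overexpression was not checked. Of 9 epithelial markers, 8 had at least 10 mean counts in every group, with a summed FPKM (fragments per kilobase of transcript, scaled to library size) of 3380 to 4490. Leukocyte markers summed to 4.48 to 6.89 FPKM over 9 genes. Of these, 2 reached 10 mean counts in each group, and PTPRC and MS4A1 were at 0 in every group. Fibroblast markers summed to 2.31 to 3.40 FPKM over 6 genes, with DCN and LUM at 0, and 4 endothelial markers summed to 0.23 to 0.26 FPKM. In NC, GAS5 and siYAP, 2, 1 and 2 fibroblast markers and 2, 2 and 1 endothelial markers reached 10 mean counts.

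Type I interferons bind IFNAR1 and IFNAR2, which hold the kinases TYK2 and JAK1. The kinases phosphorylate STAT proteins, and STAT2 acts with IRF9 in ISGF3, a complex that binds the interferon-stimulated response element. Interferon gamma binds IFNGR1 with its partner IFNGR2, and signals through JAK1 and JAK2 to genes with a gamma-activated site. IRF7 and IRF1 are transcription factors whose own genes are known interferon targets, as are those of STAT2 and IRF9.

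Stretches of promoter are shown for IRF9 and IRF1 because these transcription factor genes had a match to an interferon-related motif near the start. RefSeq promoters (GRCh38.p14, 250 bases before to 50 after a start) were found for 7 of the 9 genes, with 11 windows in all, and not for IFNAR2 and IRF7. Each is printed in the direction of the gene, with the matches in capitals. The IRF9 stretch is the 100 bases before the RefSeq start, chr14:24161165-24161264 on the plus strand. The IRF1 stretch is chr5:132490849-132490948 on the minus strand.
IRF9: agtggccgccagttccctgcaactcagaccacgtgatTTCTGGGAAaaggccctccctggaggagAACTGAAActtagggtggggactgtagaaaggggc
IRF1: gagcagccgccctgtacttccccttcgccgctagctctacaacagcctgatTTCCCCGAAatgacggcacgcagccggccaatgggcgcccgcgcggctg

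The gamma-activated site, TTCNNNGAA, reads the same on both strands. It starts 63 bases before the start of IRF9 and 124 bases before that of IRF1, and was found in 2 of the 7 genes and in 7.66% of all 35116 promoter windows. The core of the interferon-stimulated response element, GAAANNGAAA on either strand, was found in 0 of the 7 genes and in 3.57% of all windows. The 7 genes have 11 windows, so these counts of genes and shares of windows are in unlike units. A shorter pair of IRF half-sites, AANNGAAA on either strand, was searched only after the sequences had been read. It starts 35 bases before the start of IRF9, lies also in windows of JAK1, and was found in 22.8% of all windows. These matches describe letters in the window and do not show binding. The starts are those of RefSeq and differ from the gene bounds given below. By those bounds the IRF9 stretch lies inside the gene. The JAK1 windows with a match lie upstream of it, 1 of them far away at chr1:65067697-65067996.

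In NC, the kinases had the highest level per length among the 9 genes. JAK1 stood at 33.3 FPKM and TYK2 at 25.6, both apart from the next gene by more than the counting interval. STAT2 (13.4 FPKM), IFNGR1 (13.3) and IRF1 (13.0) followed within each other's intervals. IFNAR2 (10.9), IRF9 (9.91) and IFNAR1 (9.30) came next, with overlapping intervals between neighbours, and IRF7 was lowest with 5.71 FPKM. Short transcripts weigh on such sums: the 2-exon transcript TYK2-207 held 5.09% of the TYK2 counts in NC and 30.6% of its FPKM, and the full-length IFNAR1-201 held 94.9% of the IFNAR1 counts and 62.8% of its FPKM. The intervals on levels are those of a gene's summed count, scaled to its FPKM. They leave out this weight of short transcripts and are too narrow where it is large, so they do not settle the order of near levels.

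The order was different in GAS5. IRF7 (28.0 FPKM) and IRF9 (27.7) stood first, within each other's counting interval. The interval of IRF9 overlapped that of JAK1 (26.2), and that of IRF7 did not. TYK2 (21.8), STAT2 (18.4) and IRF1 (17.1) followed, and the receptor chains IFNGR1 (11.7), IFNAR2 (11.0) and IFNAR1 (8.65) were lowest. In siYAP, JAK1 (29.4), TYK2 (22.6) and STAT2 (15.4) led as in NC, and IRF7 was again lowest with 6.96 FPKM. The plot of levels shows IRF7 below all 3 receptor chains in NC and above them in GAS5.

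**Figure D1:**
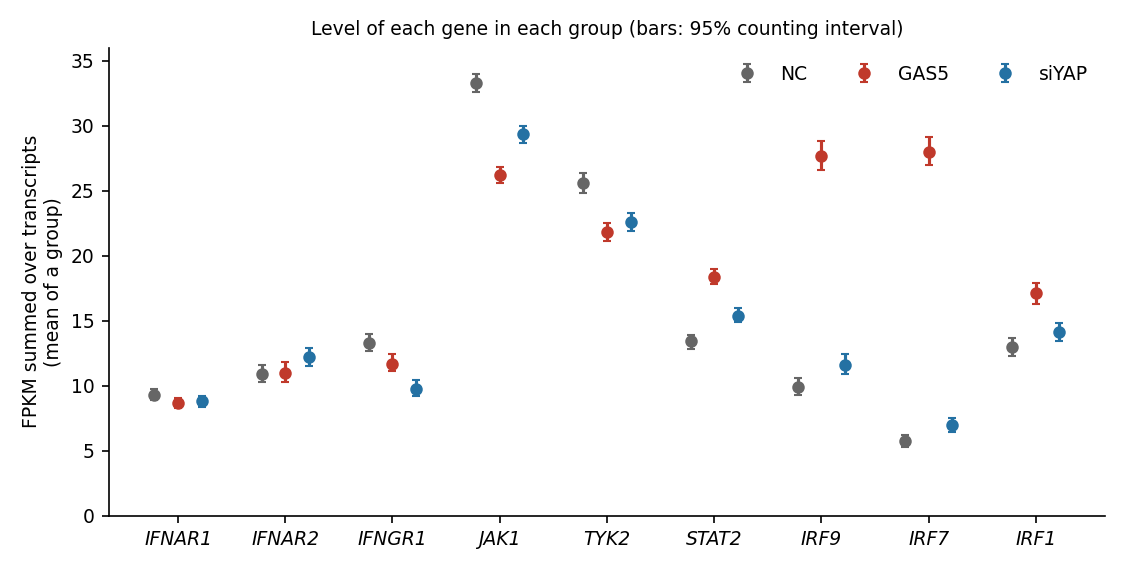
FPKM summed over the transcripts of each gene (vertical axis) in NC, GAS5 and siYAP. Bars are 95% counting intervals of the summed count, scaled to FPKM. They leave out the weight of short transcripts and can be too narrow. IRF9 stood at 9.91 FPKM in NC and 27.7 in GAS5, and IRF7 at 5.71 and 28.0, while the other genes moved by less.

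Mean counts are given in the order NC, GAS5, siYAP where no group is named. Changes were measured on counts summed over the transcripts of a gene, scaled by TMM, and given as log2 fold changes with a prior count of 2. A gene was called when it was at least 2-fold from the reference, since group means allow no test. Intervals are 95% exact binomial intervals on the counts behind the 2 libraries, and cover counting error only, not the spread between cultures.

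In GAS5, 2 of the 9 genes were called higher than in NC and 0 were called lower. Over all 13380 genes kept by the count filter, 2.17% were called higher and 0.889% lower. The 4 transcription factors were all above NC and the 5 receptor and kinase genes all below it, with a median of -0.10 over the 9 genes and -0.0035 over all genes. In siYAP, 0 of the 9 genes were called in either direction, against 1.05% called higher and 1.21% called lower of 13307 genes. The median there was 0.01 over the 9 genes and -0.001 over all genes. The split by sign was nearly the same in siYAP. The 4 transcription factors were all above NC, by 0.14 to 0.31, and 4 of the 5 receptor and kinase genes were below it. IFNAR2 stood at 0.01. At a 1.5-fold threshold the counts stayed at 2 genes in GAS5 and 0 in siYAP, with 8.44% and 10.3% of all genes past it in either direction. All 9 genes passed the filter in every comparison, with at least 300 mean counts in NC.

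IRF7, a master regulator of type I interferon genes, lies on chromosome 11 from 612553 to 615999 (GRCh38, GENCODE 29). The means for NC, GAS5 and siYAP were 300, 1386 and 352 counts. GAS5 stood apart and the other groups lay close together. The log2 fold change was 2.31 in GAS5 (2.19 to 2.45), a 4.97-fold difference and rank 67 from the top of 13380 genes. In siYAP it was 0.31 (0.15 to 0.47).

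IRF9, the DNA-binding subunit of ISGF3, lies on chromosome 14 from 24161053 to 24166565. It had 470.0, 1177 and 527 mean counts. The log2 fold change was 1.43 in GAS5 (1.33 to 1.55), 2.70-fold and rank 160 from the top, and 0.25 in siYAP (0.12 to 0.38). IRF9 shares exonic positions on its own strand with 1 other annotated gene, AL136295.5.

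STAT2, the ISGF3 subunit that carries the transactivation domain, lies on chromosome 12 from 56341597 to 56360155. The means for NC, GAS5 and siYAP were 1277, 1632 and 1394 counts. It was higher in GAS5 by 0.47 on the log2 scale (0.39 to 0.54), 1.38-fold, at rank 930, and was not called. In siYAP the value was 0.21 (0.13 to 0.29).

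IRF1, which activates interferon gamma targets and class I antigen presentation genes, lies on chromosome 5 from 132481609 to 132490798. The means for NC, GAS5 and siYAP were 687, 837 and 715 counts. The log2 fold change was 0.40 in GAS5 (0.29 to 0.50) and 0.14 in siYAP (0.04 to 0.25), and it was not called in either. Annotated genes on the opposite strand overlap IRF1 exons (AC116366.3 and C5orf56). The libraries keep the strand, but whether the counting used it is not given in the sources used here.

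The receptor chains differed little from NC. IFNAR1, the chain that binds TYK2, lies on chromosome 21 from 33324477 to 33359862. It had 1047, 906 and 932 mean counts (log2 fold change -0.10 in GAS5, interval -0.19 to 0.00, and -0.08 in siYAP, -0.17 to 0.01).

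IFNAR2, the high-affinity chain, lies nearby on chromosome 21 from 33229901 to 33265675. It had 570.0, 475 and 540.0 mean counts (-0.15 in GAS5, interval -0.28 to -0.03, and 0.01 in siYAP, -0.12 to 0.13). Its sum is less certain than the others. A mean of 2 whole numbers ends in 0 or 0.5, and the sums of the other 8 genes lay within 0.02 counts of such a value in every group, as did 87.0% of the 11907 genes with at least 50 mean counts. Those of IFNAR2 did not, and AP000295.1 shares exonic positions with it on the same strand and IL10RB-DT on the opposite strand.

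IFNGR1, the ligand-binding chain for interferon gamma, lies on chromosome 6 from 137197484 to 137219449. The means for NC, GAS5 and siYAP were 788, 644 and 556 counts. The log2 fold change was -0.18 in GAS5 (-0.28 to -0.07). At -0.42 in siYAP (-0.53 to -0.31), 1.33-fold lower, it was the member furthest from NC in that group, and 11.2% of all genes lay below it.

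JAK1, the kinase shared by both receptor types, lies on chromosome 1 from 64833229 to 64966504 and had the most counts of the 9 genes. They were 4656, 3444 and 3976, with log2 fold changes of -0.32 (-0.37 to -0.28) and -0.14 (-0.19 to -0.10). TYK2, on chromosome 19 from 10350529 to 10380676, had 2088, 1783 and 1943 mean counts (-0.11 in GAS5, interval -0.18 to -0.05, and -0.02 in siYAP, -0.08 to 0.04). Both kinases had their highest unscaled count in NC, with GAS5 lowest, which is also the order of the total counts of the groups. After scaling, the interval of TYK2 in siYAP included no change. JAK1 shares exonic positions with RAVER2 on the opposite strand.

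**Figure D2:**
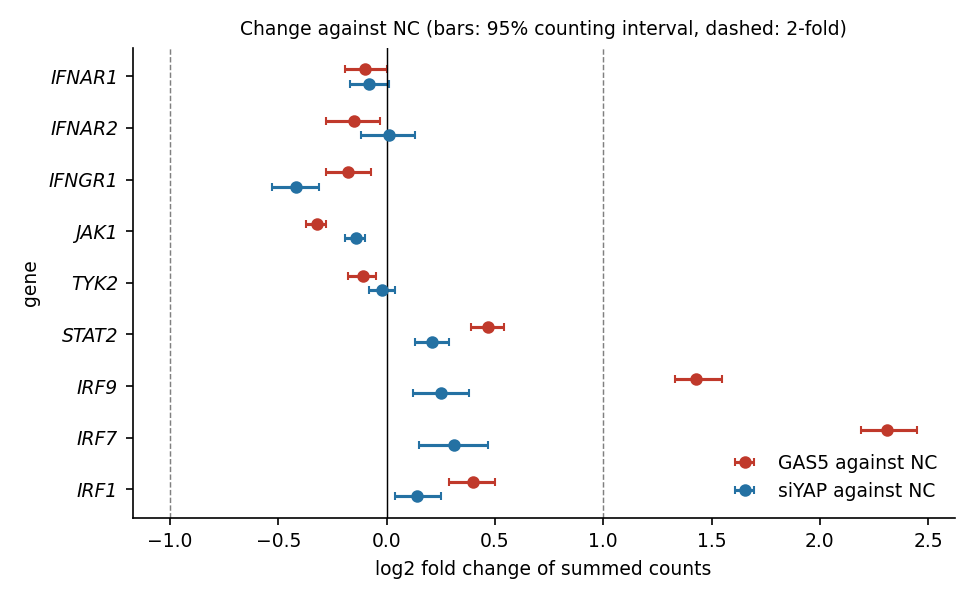
Log2 fold change of summed counts against NC (horizontal axis) for each gene in GAS5 and siYAP, with 95% counting intervals as bars and dashed lines at 2-fold. IRF9 (1.43) and IRF7 (2.31) lay past 2-fold in GAS5, and no gene did in siYAP.

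The values of both treatments share the NC means, so GAS5 was also set directly against siYAP. Of the 9 genes, 2 were at least 2-fold higher in GAS5 and 0 were lower, against 2.63% higher and 2.02% lower over 13386 genes, and 16.6% past 1.5-fold. The median was 0.23 over the 9 genes and -0.0002 over all genes. IRF7 differed by 1.99 on the log2 scale (1.87 to 2.11) and IRF9 by 1.17 (1.07 to 1.28). STAT2 and IRF1 both differed by 0.24, with intervals of 0.17 to 0.32 and 0.14 to 0.34. IFNGR1 was higher in GAS5 than in siYAP by 0.23 (0.11 to 0.34). IFNAR1 (-0.03), TYK2 (-0.11), IFNAR2 (-0.17) and JAK1 (-0.19) lay below 0.

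**Figure D3:**
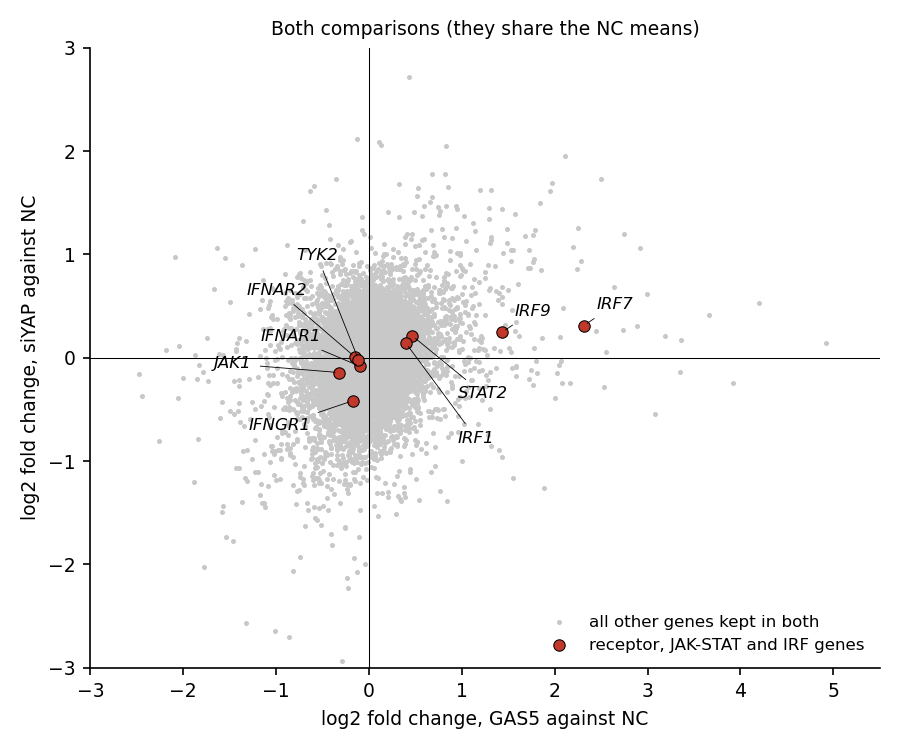
Log2 fold change in GAS5 (horizontal axis) and siYAP (vertical axis) for each gene, with the receptor, JAK-STAT and IRF genes in red and the other genes kept in both comparisons in grey (15 of these 13203 genes lie outside the axes). IRF9 and IRF7 lay to the right of the cloud, at 0.25 and 0.31 on the siYAP axis, and the receptor and kinase genes lay within it.

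The genes whose pair of log2 fold changes lay nearest to that of IRF9, by Euclidean distance over both comparisons among 11277 other genes with at least 100 mean counts in NC, were PARP12 (distance 0.177), HELZ2 (0.179) and ARRDC3 (0.189). For IRF7 they were NMNAT3 (0.352), DDX58 (0.418) and TNFAIP3 (0.465). PARP12 had 768, 1802 and 774 mean counts, HELZ2 had 2281, 6333 and 2729, and ARRDC3 had 892, 2535 and 974. NMNAT3 had 140, 765 and 136, and TNFAIP3 had 116, 395 and 125. DDX58, which encodes the RNA sensor RIG-I, had 513, 1992 and 475.

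Counts were also compared by transcript. The split of a gene's counts between its transcripts is the authors' estimate, and intervals do not cover its error. Of the 49 transcripts, 33 passed the count filter in GAS5 against NC, and 12 of these were at least 2-fold higher and 0 lower, against 10.5% higher and 9.56% lower of all 41339 transcripts. With the transcripts chosen on at least 10 mean counts in NC, 8 of 29 were higher, against 4.93% of all 38906 transcripts chosen in this way. In siYAP 30 passed, with 5 higher and 2 lower, against 9.39% and 11.4% of 40871 transcripts. Chosen on at least 10 mean counts in NC, 4 of 29 were higher in siYAP and 2 lower. The share of all transcripts chosen in this way was not computed for siYAP. IRF9-203, with 7.11 mean counts in NC and 15.3 in siYAP, passed the filter there through its siYAP counts.

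The higher transcripts in GAS5 came mostly from IRF7 and IRF9. All 6 IRF7 transcripts that passed were at least 2-fold higher, and all 5 with at least 10 mean counts in NC. IRF7-205, which encodes 503 residues, had 137, 420.0 and 59.9 mean counts. Its share of the IRF7 counts was 45.8% in NC (95% exact interval 41.6% to 49.7%), 30.3% in GAS5 (28.6% to 32.1%) and 17.0% in siYAP (14.4% to 20.1%). It was thus higher than NC by 1.70 in GAS5 and called lower in siYAP (-1.06), where the summed IRF7 counts were above NC. IRF7-203, which encodes 516 residues, had 21.5, 200 and 47.2 mean counts, with a share of 7.17% in NC, 14.4% in GAS5 and 13.4% in siYAP. IRF7-201, also of 516 residues, had 42.3, 187 and 85.1 mean counts, and IRF7-202, of 474 residues, had 26.5, 103 and 55.4. These were called higher in both treatments, with log2 fold changes in GAS5 and siYAP of 3.20 and 1.17 for IRF7-203, 2.19 and 1.08 for IRF7-201, and 1.98 and 1.12 for IRF7-202. A transcript assembled from the reads had 71.5, 423 and 104 mean counts. ENST00000397570 was listed at 0 in NC and siYAP and had 52.8 mean counts in GAS5. It passed the filter through its GAS5 counts. Its 0 is part of the estimated split between transcripts, so no fold is given.

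IRF9-202, which encodes 393 residues, held 94.0% of the IRF9 counts in NC (92.3% to 95.5%), 88.4% in GAS5 (87.1% to 89.7%) and 92.8% in siYAP (91.0% to 94.3%). It had 442, 1041 and 488 mean counts, a log2 fold change of 1.33 in GAS5 and 0.26 in siYAP. Of STAT2, the main transcript STAT2-201 had 696, 857 and 747 mean counts (0.40 in GAS5). STAT2-210, 847 residues against 851, had 198, 335 and 212 mean counts (0.85 in GAS5, 0.21 in siYAP). The main IRF1 transcript, IRF1-202, had 569, 671 and 557 mean counts (0.34 and 0.08).

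TYK2-205 and TYK2-201 each encode 1187 residues. TYK2-205 had 1439, 1284 and 1240 mean counts, and TYK2-201 had 473, 308 and 560.0. TYK2-201 thus lay below NC in GAS5 (-0.51) and above it in siYAP (0.36). ENST00000524462, another TYK2 transcript, was listed at 0 in NC and siYAP and had 58.3 mean counts in GAS5. It too passed the filter through its GAS5 counts, and no fold is given for the same reason. The summed TYK2 counts lay below NC in GAS5 (-0.11).

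IFNAR2-202 encodes the 515-residue form that spans the membrane with a long cytoplasmic tail. It had 138, 107 and 171 mean counts. IFNAR2-204 and IFNAR2-205 encode 331 residues, and had 143, 131 and 119 and 183, 121 and 131 mean counts. IFNAR2-209 was called higher in GAS5 and lower in siYAP, at 20.3, 63.2 and 1.70 mean counts. IFNAR2-206 was called higher in siYAP, at 42.0, 32.6 and 100 mean counts. IFNGR1-201 held at least 99.1% of the IFNGR1 counts in each group, and JAK1 has 1 transcript in the tables.

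**Figure D4:**
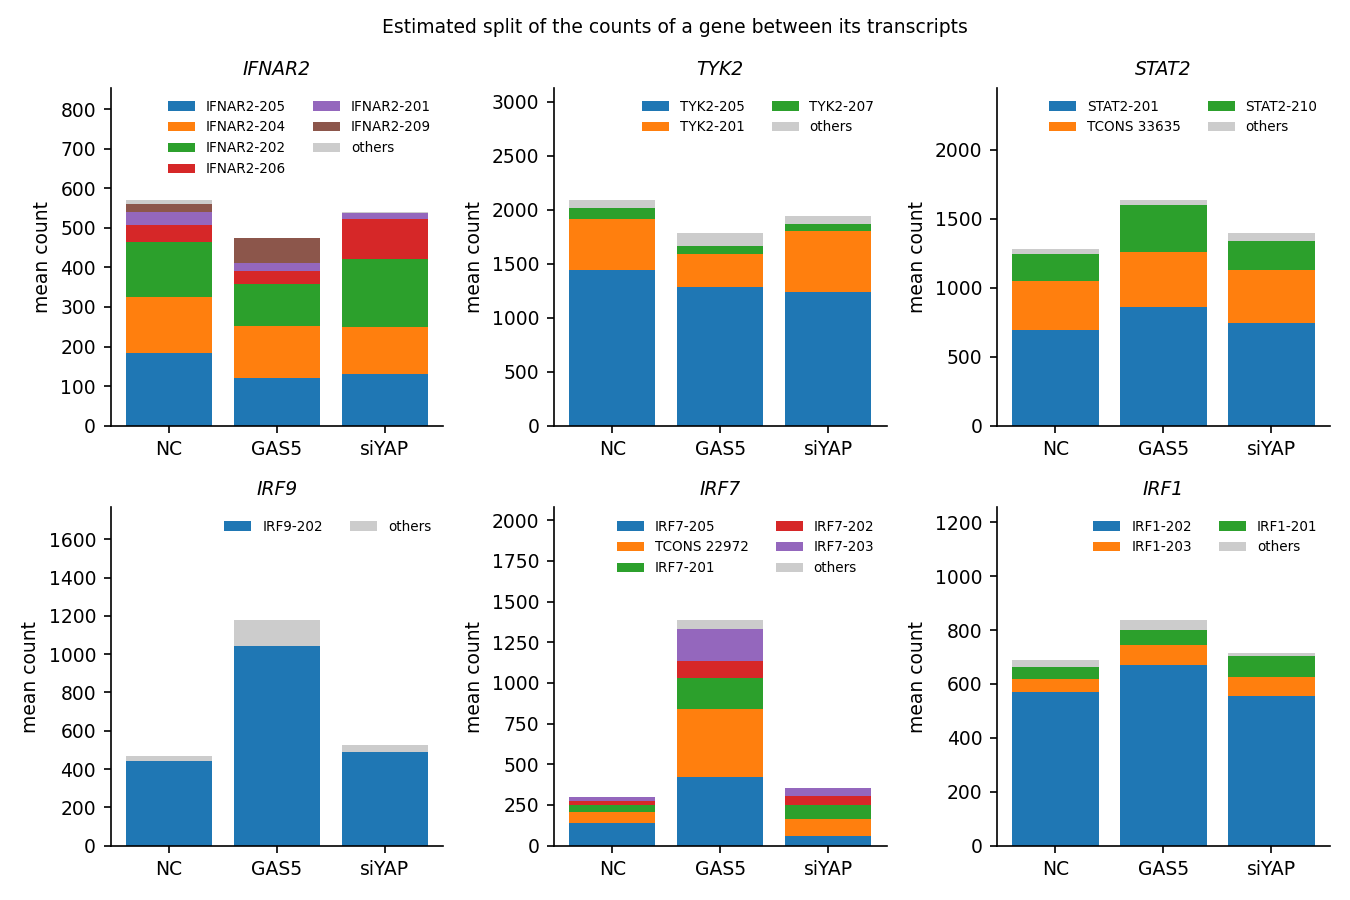
Mean counts (vertical axis) in NC, GAS5 and siYAP for 6 genes, stacked by transcript, with transcripts under 5% of the counts in every group joined as others. All large IRF7 layers were taller in GAS5, and IRF9-202 made up most of the IRF9 bar in each group.

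The other genes of the pathway were read from 7 lists, each described by its counts and its median. Over all genes, 2.17% were called higher and 0.889% lower in GAS5 with a median of -0.0035, and 1.05% higher and 1.21% lower in siYAP with a median of -0.001. Of the 8 other receptor, JAK and STAT genes reported here, 7 passed the filter, and 0 were called in GAS5 and 0 in siYAP (medians -0.02 and 0.06). They ranged from -0.28 to 0.22 in GAS5 and from -0.08 to 0.34 in siYAP, beside a range of -0.52 to 0.56 in GAS5 that leaves out 5% of all genes at either end. IFNGR2, the partner of IFNGR1, had 1401, 1462 and 1499 mean counts. JAK2, the kinase bound to IFNGR2, had 277, 268 and 258.

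Of 6 other IRF genes 4 passed the filter, with 0 called in either treatment and medians of 0.06 in GAS5 and 0.32 in siYAP. IRF3, the constitutive partner of IRF7, had 1851, 1725 and 1901 mean counts. IRF8, a factor of blood cells, was listed at 0 in every group.

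All 21 negative regulators passed, and 1 was called higher in each treatment, with medians of -0.12 in GAS5 and 0.09 in siYAP. In GAS5 it was USP18, which removes ISG15 and blocks JAK1 at IFNAR2, with 252, 822 and 215 mean counts (1.81, interval 1.67 to 1.97). In siYAP it was SOCS1, an inhibitor of JAK kinases, with 63.0, 102 and 144 mean counts (1.25, interval 0.97 to 1.59, and 0.79 in GAS5).

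Of 22 other chains of cytokine receptors whose complexes use JAK1 or TYK2, 17 passed. In GAS5, 0 were called higher and 2 lower, with a median of -0.01. These were IL20RB, a chain of the receptors for interleukins of the IL-20 group (242, 74.0 and 234 mean counts, -1.57 in GAS5), and IL21R, the interleukin 21 receptor (98.5, 42.0 and 82.5, -1.08 in GAS5). With assembled transcripts left out, IL21R stood at -0.67 and was not called. In siYAP 0 were called and the median was 0.08.

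The interferon ligands had few counts. Of 10 genes, 2 passed in GAS5 and 1 was called, which passed the filter through its GAS5 counts. The gene with at least 10 mean counts in NC, IFNL3, was not called. IFNL1, a type III interferon, was listed at 0 in NC and siYAP and had 31.5 mean counts in GAS5, at least 22.7-fold higher against a floor of 3 counts over both NC libraries. IFNL2 had 0, 12.5 and 0 mean counts and IFNL3 had 55.0, 68.5 and 58.5, and these near-identical genes may share reads. IFNB1 had 2.50 mean counts in GAS5 and was at 0 in the other groups. In siYAP 1 passed, IFNL3, and it was not called.

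Of 15 target genes of ISGF3, 14 passed in GAS5 and all 14 were called higher, with a median of 3.14. Of these, 10 had at least 10 mean counts in NC, all called, with a median of 3.13, against 1.1% called higher of all 13186 genes chosen in this way. The other 4 passed the filter through their GAS5 counts. Among those with at least 10 mean counts in NC, the log2 fold change was 4.92 for OAS1, 3.92 for IFIT1, 3.66 for IFI6 and 3.35 for IFIT2. IFI44 had 6.5, 125 and 7.0 mean counts and IFI44L 0.5, 21.5 and 0, and their values depended on the prior count (4.0 and 3.30 with a prior of 2, and 4.27 and 4.54 with 0.5). IFIT1, which binds viral RNA, had 216, 3051 and 172 mean counts. In siYAP, 10 of the 15 passed, 0 were called and the median was 0.00. The list was written with earlier results of these libraries known, so the count is no independent evidence.

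Of 14 target genes of interferon gamma and IRF1, 6 passed, and 1 was called in GAS5 and 0 in siYAP, with medians of 0.20 and 0.29. The called gene was GBP3, a guanylate-binding protein, with 10.0, 22.5 and 12.5 mean counts (1.13 in GAS5, interval 0.49 to 2.12), and its value was -0.56 when assembled transcripts were left out. CXCL9 and IDO1 were listed at 0 in every group. In GAS5 against siYAP, 0 genes were called among the receptor, JAK and STAT genes reported here, 0 among the IRF genes, 1 among the negative regulators, 1 among the cytokine receptor chains, 1 among the ligands, 14 among the ISGF3 targets and 0 among the interferon gamma and IRF1 targets. Chosen on at least 10 mean counts in NC, 0 ligands and 10 of 10 ISGF3 targets were called higher, against 1.96% of all genes.

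**Figure D5:**
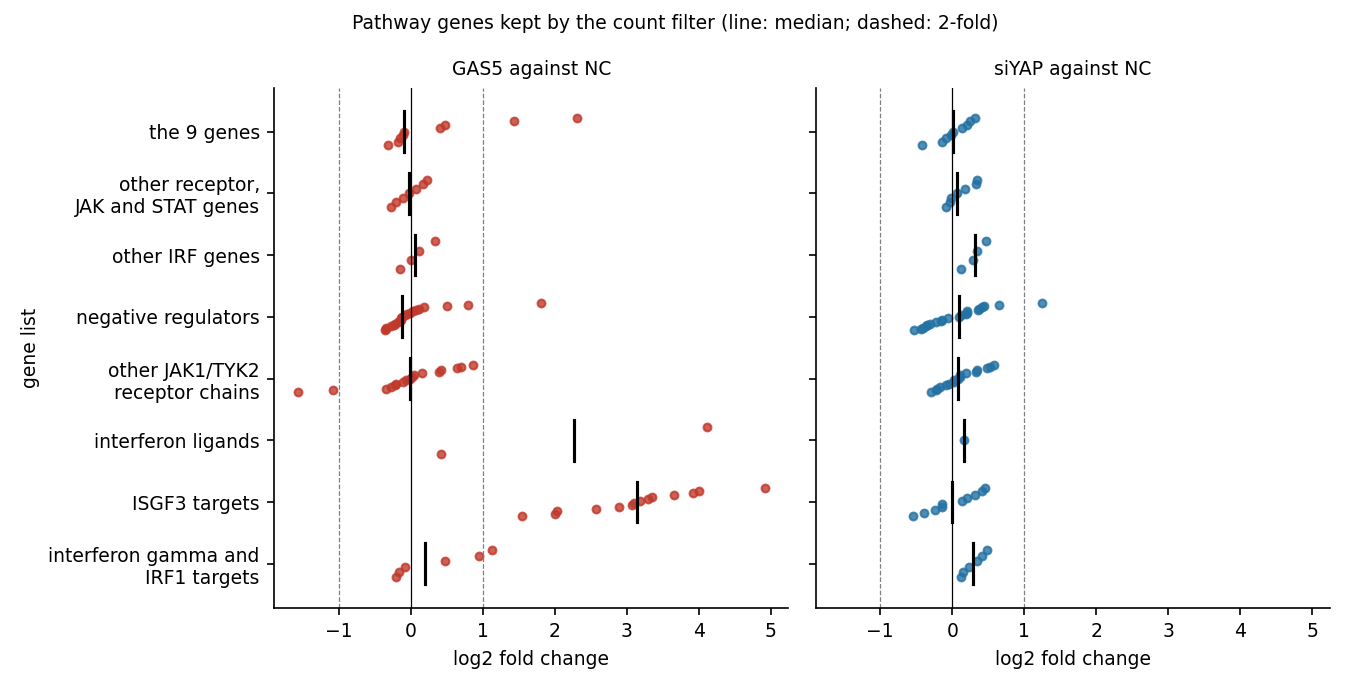
Log2 fold change against NC (horizontal axis) of each gene that passed the count filter, in GAS5 (left) and siYAP (right), by gene list, with the median as a black line. The ISGF3 targets had a median of 3.14 over 14 genes in GAS5 and 0.00 over 10 genes in siYAP. The 10 with at least 10 mean counts in NC had a median of 3.13 in GAS5, and the others passed through their GAS5 counts. The 9 genes had medians of -0.10 and 0.01.

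RNA from a whole culture does not tell more RNA per cell apart from more cells that hold it. The summed leukocyte markers stood at 4.73 FPKM in NC, 6.89 in GAS5 and 4.48 in siYAP beside the IRF7 and IRF9 values, and their part in the result was not tested.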

How the data were processed

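LncRNA libraries of HCT116 cells were sequenced in 3 groups (NC, GAS5 and siYAP) of 2 libraries, and no source says whether these came from separate cultures. The authors deposited 1 table per treatment with expected counts, which are estimated counts per mRNA transcript, and FPKM values, both averaged over the libraries of a group (0 FPKM written as 0.001). TopHat2 2.1.1 is named in the submitters' processing notes, and the counting tool, genome build and annotation are not given in the sources used here. The deposited fold change, p-value and FDR columns hold the authors' own comparisons and were not used.

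The tables were joined by transcript identifier (NC values differed for 0 transcripts), upper-case symbols came from the siYAP table, since 212 transcripts carry another symbol in the GAS5 table, and counts were summed by symbol. The 339 transcripts without a symbol stayed out of gene sums. Scaling was TMM (edgeR 4.0.16, R 4.3.3) on each pair of group means, with filterByExpr at a minimum count of 10 and a prior count of 2. Genes at least 2-fold apart were called. A test in edgeR or DESeq2 needs libraries and was not run. Counting intervals at 95% (exact, from scipy 1.17.1) used the counts of 2 libraries. Steps were tested on simulated data. Summed mean counts were 27206123 (NC), 25521577 (GAS5) and 26298036 (siYAP). Coordinates and transcript names come from GENCODE 29 on GRCh38, matched by symbol and identifier.

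A gene of the receptor, JAK and STAT list is not reported here, and the counts and medians of that list leave it out. The members and lists were chosen with earlier results of these data known. Named genes are the 9 members, their transcripts with at least 5% of a gene's counts in any group, list genes past 2-fold in either treatment (at most 6 a list) and the 3 nearest genes. Transcripts listed at 0 in NC, and other list genes given for context, were added after their values were seen. Alternatives were DESeq2 1.42.0 size factors, total counts, FPKM ratios, a prior count of 0.5, Ensembl transcripts alone, other filters, a 1.5-fold threshold and the most abundant transcript.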

Additional observations from a re-analysis of the deposited data

How the results depend on the processing

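No paired analysis was possible because each group is given as a single averaged column. The tests in edgeR and DESeq2, the replicate block and leaving out a library were therefore not run. The numbers of the 9 genes called (2 higher and 0 lower in GAS5, 0 and 0 in siYAP, and 2 and 0 in GAS5 against siYAP) were the same under each alternative scaling, prior count, filter, transcript set and threshold. All 9 genes passed the filter, so leaving it out could not change these numbers. IRF9 ranged from 1.33 to 1.48 and IRF7 from 1.70 to 2.32 on the log2 scale in GAS5, and IRF7 was lowest with its most abundant NC transcript alone, which gave -1.06 in siYAP. IFNAR2 changed sign between alternatives (-0.50 to 0.02 in GAS5, -0.37 to 0.16 in siYAP), as did TYK2 in GAS5 against siYAP (-0.12 to 0.02). For the changes below the cause was not tested.

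With the ratio of summed FPKM, the median of the 9 genes in GAS5 was 0.02, and 0 of the interferon gamma and IRF1 targets were called in GAS5. With Ensembl transcripts alone, GAS5 had 1 call among the other receptor, JAK and STAT genes, 1 among the cytokine receptor chains and 0 among the interferon gamma and IRF1 targets, and GBP3 reversed to -0.56. Without the count filter, calls among ligands were 3 in GAS5 and 4 in GAS5 against siYAP, among the interferon gamma and IRF1 targets 3 in GAS5, 1 in siYAP and 1 in GAS5 against siYAP, and among ISGF3 targets 1 in siYAP, while member transcripts called lower were 1 in GAS5 and 7 in siYAP. Where every group had to reach 10 mean counts, 7 member transcripts were called higher in GAS5 and 1 lower in siYAP. At 1.5-fold, calls in GAS5 were 2 among the negative regulators, 5 among the cytokine receptor chains and 2 among the interferon gamma and IRF1 targets, and in siYAP 2 among the negative regulators. In GAS5 against siYAP they were 1, 1, 3, 6 and 2 among the receptor, JAK and STAT genes, the IRF genes, the negative regulators, the cytokine receptor chains and the interferon gamma and IRF1 targets. Of the other counts and medians, 203 stayed in range. A count was in range when at most 1.5-fold from its main value, so some of these counts differed. A median was in range when it lay within the median counting interval of the 9 genes. Of the values of single genes, 432 stayed within the counting interval of the gene, 29 did not or had no interval, and 1 reversed.

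Counting intervals are narrow for the 9 genes and wide for list genes with few counts, such as GBP3 (0.49 to 2.12 in GAS5). The spread between cultures is unknown, so the order of close values is not settled.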
